A study of Homo sapiens with 3 samples.

Results

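The genes described here encode the subunits of the mitochondrial respiratory chain that are carried by nuclear chromosomes. They were chosen by name from the protein-coding genes of GENCODE release 44 on hg19: NDUFA, NDUFB, NDUFC, NDUFS and NDUFV genes with a number, SDHA to SDHD, all UQCR genes, the COX4 to COX8 subunit genes and all ATP5 genes, with the NDUFAF assembly factors left out. This gave 87 of 20136 protein-coding genes. A gene was said to have a promoter peak when the midpoint of an ETS1 peak lay between 5 kb upstream and 1 kb downstream of its transcription start site (TSS), which was taken from the canonical transcript. A wider window of 50 kb on each side was used after that. The naming rule itself uses no peak, although it was chosen with earlier results of these data known.

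ETS1 binding was measured by ChIP-Seq in untreated SCC25 cells, an established line of tongue squamous cell carcinoma origin. There were 3 ChIP samples, 2 made with the antibody C20 and 1 made with the antibody 501A, and all came from this 1 cell line without any genetic change or treatment. The authors deposited 1 list of 26970 peaks kept by the irreproducible discovery rate procedure (IDR), which retains peaks whose ranks recur between samples. The list gives a start and an end per peak and no signal, depth or value per sample, so no spread between replicates, no comparison of the antibodies and no test between groups could be made, and neither the expression of these genes nor markers of the cell type can be read from it.

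The respiratory chain transfers electrons from NADH and succinate to oxygen through complexes I to IV and uses the resulting proton gradient to make ATP at complex V. Most of its subunits are encoded in the nucleus and imported, while a few are encoded by mitochondrial DNA, so that the nuclear promoters are commonly described as coordinated by shared factors, among them NRF1, YY1, ESRRA and the ETS factor GABP, whose DNA-binding subunit is GABPA. ETS1 and GABPA belong to the same family and both recognise DNA with a GGAA core, which means that ETS letters in a promoter do not tell these factors apart.

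To show what such promoters look like, stretches that hold the ETS letters CCGGAAG or CGGAAGT are given below from GRCh37, the same nuclear sequence as hg19, on the strand of the gene and 5′ to 3′. Capitals mark these letters on either strand, so that CTTCCGG and ACTTCCG are matches on the opposite strand. In each complex the gene shown is the one whose upstream CCGGAAG lay nearest to the midpoint of its ETS1 peak. These are NDUFS3 of complex I (chr11:47600494-47600560, + strand), SDHD of complex II (chr11:111957490-111957556, + strand), UQCRQ of complex III (chr5:132202250-132202316, + strand), COX6A1 of complex IV (chr12:120875870-120875915, + strand) and ATP5PD of complex V (chr17:73043129-73043195, - strand). All lie upstream of the TSS, and 29 bases of the NDUFS3 stretch are also exon of the neighbour KBTBD4. UQCR11 (chr19:1605522-1605608, - strand) is shown as the gene that holds the letters upstream of its TSS and has no promoter peak.
NDUFS3: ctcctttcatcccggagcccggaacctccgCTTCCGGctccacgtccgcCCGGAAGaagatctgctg
SDHD: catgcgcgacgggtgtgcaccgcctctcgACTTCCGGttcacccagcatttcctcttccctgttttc
UQCRQ: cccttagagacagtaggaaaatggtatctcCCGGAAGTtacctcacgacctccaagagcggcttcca
COX6A1: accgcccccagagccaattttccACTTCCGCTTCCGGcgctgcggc
ATP5PD: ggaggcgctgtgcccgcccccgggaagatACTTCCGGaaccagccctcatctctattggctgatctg
UQCR11: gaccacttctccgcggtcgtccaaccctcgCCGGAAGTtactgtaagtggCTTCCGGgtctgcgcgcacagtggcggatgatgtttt

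The match lay 5 bp from the peak midpoint at NDUFS3, 20 bp at SDHD, 61 bp at UQCRQ, 53 bp at COX6A1 and 149 bp at ATP5PD. COX6A1 carries a pair of matches next to each other within its 46 bp stretch. UQCR11 also carries a pair of matches, and its nearest peak midpoint was 47611 bp upstream.

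Of the 87 respiratory chain genes, 73 had an ETS1 peak in the promoter window (83.9%, 95% Wilson interval 74.8 to 90.2%). The same window held a peak in 55.3% of all protein-coding genes, which lies below that interval. The intervals cover the counting of genes only, and genes are not independent replicates. Within 50 kb, 85 of the 87 genes had a peak (97.7%, interval 92.0 to 99.4%) against 77.2% of all protein-coding genes, and only NDUFA5 and the testis gene COX7B2 had none. The 73 genes had 73 different nearest peaks, so no peak was counted for more than 1 respiratory chain gene.

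The promoters of many of these genes are CpG-rich, as promoters of broadly expressed genes often are. A promoter was called CpG-rich where the 1000 bp centred on the TSS had a GC content of at least 55% and a ratio of observed to expected CpG of at least 0.6. That was so for 59 respiratory chain genes (67.8%) and for 59.6% of all genes. A peak was present at 55 of these 59 promoters (93.2%, interval 83.8 to 97.3%) and at 74.0% of all CpG-rich promoters. Among the 28 respiratory chain promoters that were not CpG-rich, 18 had a peak (64.3%, interval 45.8 to 79.3%), against 27.7% of such promoters over all genes. The share of genes with a peak was thus higher than the background in both classes, and in both the interval left out the background value.

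**Figure D1:**
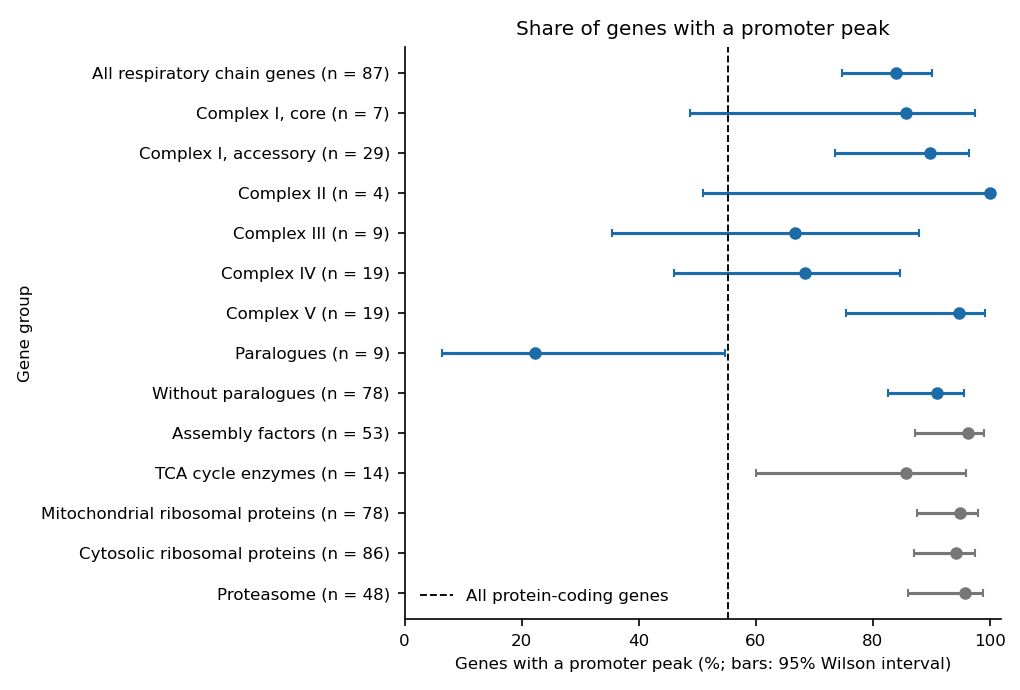
The share of genes with an ETS1 peak in the promoter window is plotted in percent for groups of respiratory chain genes (blue) and for other gene lists (grey), with 95% Wilson intervals as bars, n in the labels and the 55.3% of all protein-coding genes as a dashed line. The respiratory chain genes without their paralogues stand at 91.0%, and the 9 paralogues at 22.2%.

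Complex I takes electrons from NADH. Of its 36 genes in the set, 32 had a promoter peak (88.9%, interval 74.7 to 95.6%). Its core comprises subunits conserved from bacteria that carry the flavin and iron-sulphur clusters, and 6 of the 7 nuclear core genes had a peak. The midpoint lay 94 bp upstream of the TSS at NDUFS3, of the module that reduces ubiquinone. In the same module, NDUFS7 had a peak 136 bp upstream and NDUFS8 had a peak of 3084 bp at 504 bp upstream, the widest of the complex. NDUFS1, the large iron-sulphur subunit of the NADH-oxidising module, had a midpoint 253 bp upstream, and NDUFV1, which binds flavin and NADH, had 1 at 202 bp downstream in an intron. NDUFV2, the partner of NDUFV1 in that module, was the core gene without a promoter peak, although its promoter was CpG-rich with a GC content of 60.9%. Its nearest peak midpoint was 34080 bp downstream of the TSS.

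The accessory subunits surround this core and are needed for its assembly and stability. Of the 29 accessory genes, 26 had a peak (89.7%, interval 73.6 to 96.4%), made up of 10 of 12 NDUFA genes, 10 of 11 NDUFB genes, both NDUFC genes, NDUFS4, NDUFS5, NDUFS6 and NDUFV3. The midpoint nearest to a TSS was that of NDUFB10 at 24 bp downstream, in a peak of 1707 bp. NDUFS4, a subunit of the peripheral arm often affected in Leigh syndrome, had the narrowest peak of all 73 genes at 565 bp, with its midpoint 140 bp downstream. The 3 accessory genes without a peak were NDUFA5, whose nearest midpoint was 190850 bp upstream, NDUFA8 with 20034 bp upstream, and NDUFB11 with 46437 bp upstream. NDUFA5 had the most remote nearest peak among the broadly expressed genes of the set.

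Complex II, which also works as succinate dehydrogenase in the tricarboxylic acid cycle, is the complex with no mitochondrially encoded subunit. All 4 of its genes had a peak, which for 4 genes allows a share down to 51.0%. The midpoint was 210 bp downstream of the TSS at SDHA, the flavoprotein, and 139 bp downstream at SDHB, the iron-sulphur subunit. For the membrane anchors, it was 110 bp downstream at SDHC and 94 bp upstream at SDHD. Widths ranged from 894 bp at SDHC to 1381 bp at SDHA, and all 4 promoters were CpG-rich.

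Complex III passes electrons from ubiquinol to cytochrome c. A peak was found at 6 of its 9 genes (66.7%, interval 35.4 to 87.9%), an interval that includes the 55.3% of all genes. The core proteins UQCRC1 and UQCRC2 had midpoints 61 and 176 bp upstream, and UQCRFS1, the Rieske iron-sulphur protein, had a midpoint 92 bp downstream. At UQCR10 and UQCRQ, small subunits, the midpoints were 341 and 112 bp upstream. UQCRH, the hinge protein that helps to bind cytochrome c1, had a peak of 3225 bp centred 1231 bp upstream that still reached over its TSS. Without a peak were UQCRB, a subunit next to a ubiquinone site, with the nearest midpoint 26552 bp upstream, UQCR11, and UQCRHL, a near-identical copy of UQCRH, with the nearest midpoint 7385 bp downstream.

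Complex IV reduces oxygen, and its nuclear subunits surround a mitochondrially encoded core. Of its 19 genes, 13 had a peak (68.4%, interval 46.0 to 84.6%), which again includes the share of all genes. Leaving out the paralogues described below, the count was 11 of 12 genes (91.7%). The midpoint lay 39 bp downstream at COX4I1, a regulatory subunit, 35 bp downstream at COX5A and 114 bp upstream at COX5B, both subunits at the edge of the core. It lay 66 bp upstream at COX6A1, 318 bp downstream at COX6C and 176 bp downstream at COX7C. COX7A2L, which takes part in forming supercomplexes, had a peak 60 bp upstream, and NDUFA4, named for complex I and now placed in complex IV, had a peak 139 bp upstream. COX7B on the X chromosome was the exception, with its nearest midpoint 11168 bp downstream and the lowest GC content of the set at 40.6%.

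Complex V is the ATP synthase. Of its 19 genes, 18 had a peak (94.7%, interval 75.4 to 99.1%), and the 1 without was the copy ATP5MGL. The head in which ATP is made had a peak at all 5 genes (ATP5F1A to ATP5F1E), with midpoints 120 and 173 bp downstream at ATP5F1A and ATP5F1B, which encode the alpha and beta subunits. At ATP5F1C, the gamma subunit of the rotor, the midpoint was 54 bp upstream. ATP5F1E, the epsilon subunit, had the midpoint nearest to a TSS of all members, 9 bp upstream. The 3 genes ATP5MC1, ATP5MC2 and ATP5MC3 encode the same mature c subunit of the rotor ring from separate loci, and each had its own peak, 68 bp upstream, 407 bp upstream and 274 bp downstream. All 4 genes of the peripheral stalk (ATP5PB, ATP5PD, ATP5PF and ATP5PO) and all 5 of the small membrane subunits (ATP5ME, ATP5MF, ATP5MG, ATP5MJ and ATP5MK) had a peak as well. ATP5IF1, which is no subunit but the inhibitor that blocks ATP hydrolysis when the gradient fails, had the widest nearest peak of this complex at 1807 bp, 79 bp upstream, and a second one of 543 bp at 3224 bp upstream that lies in the window of DNAJC8 too.

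**Figure D2:**
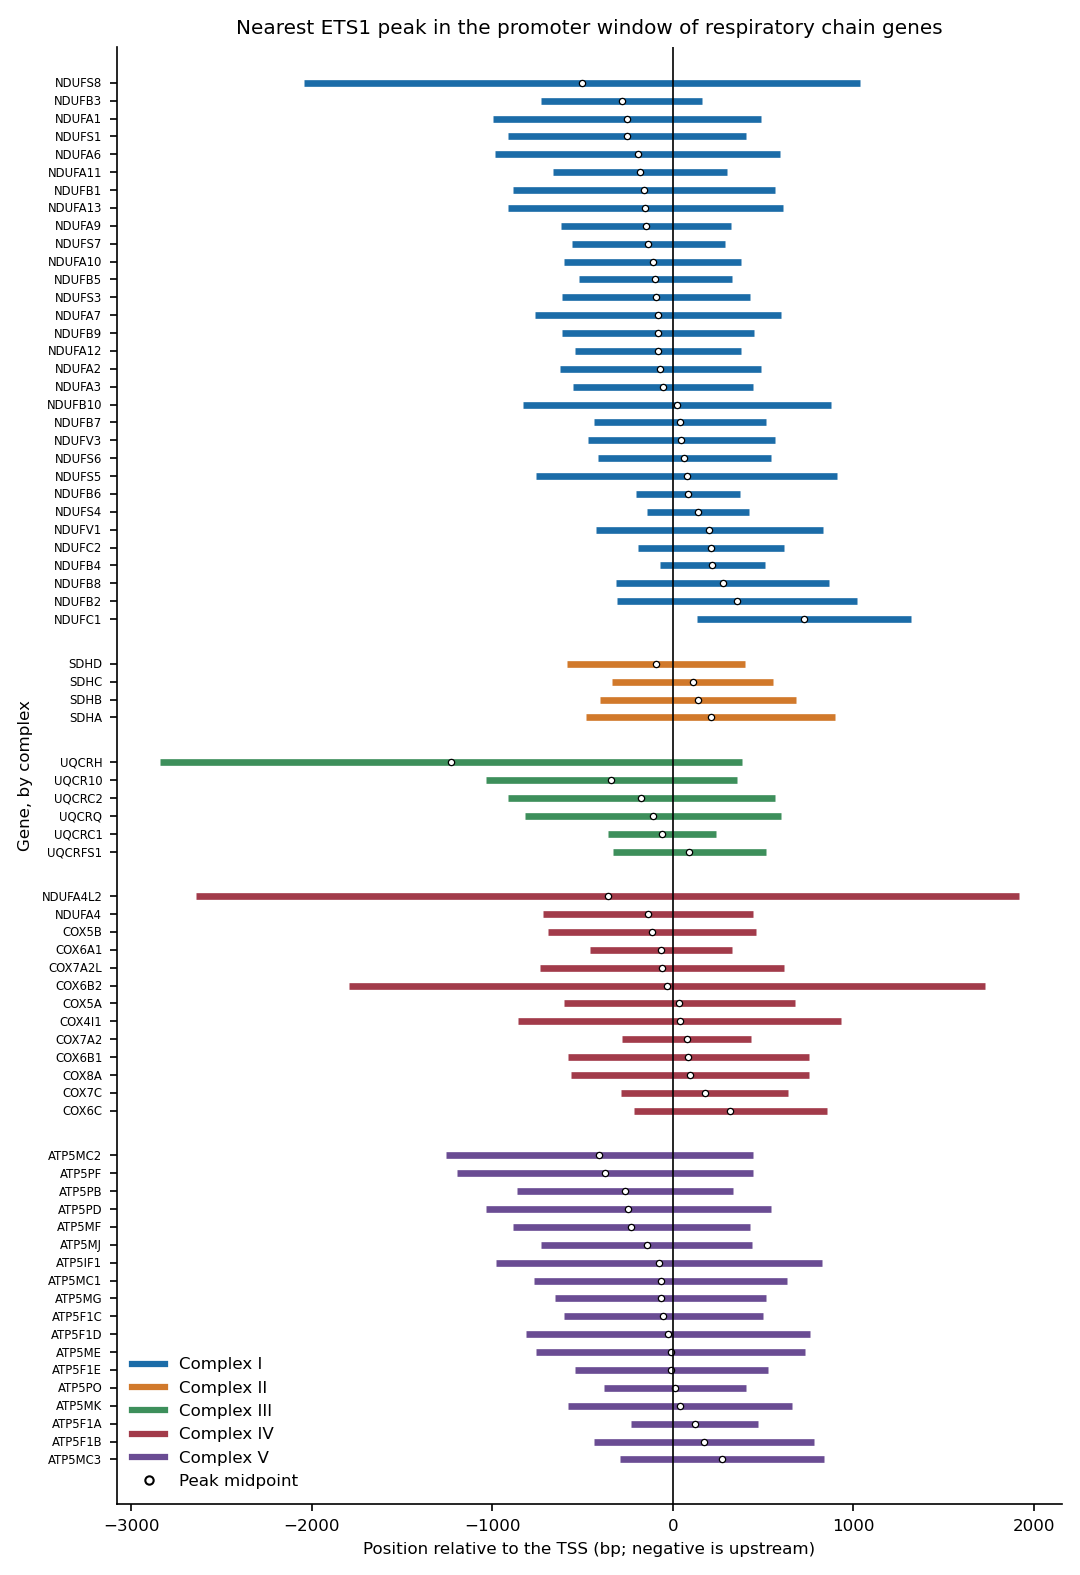
Each bar is the nearest promoter peak of 1 gene, drawn from its start to its end relative to the TSS in bp on the strand of the gene, with the midpoint as a circle, and genes are sorted by midpoint within each complex (colours). All bars drawn cross the TSS except that of NDUFC1, and the long bars are those of NDUFS8, UQCRH, NDUFA4L2 and COX6B2.

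The peaks lay close to the TSS. The median distance between midpoint and TSS was 114 bp (quartiles 68.0 and 212 bp) over the 73 genes and 187 bp (quartiles 86.0 and 360 bp) over all protein-coding genes with a promoter peak. The midpoint was within 500 bp at 70 genes (95.9%), against 83.5% of all genes with a peak. It was within 100 bp at 33, a count not made over all genes. It was upstream of the TSS at 44 genes (60.3%, against 43.5% over all genes), within an exon at 16 and within an intron at 13. Over all 11137 genes with a peak, it was within an exon at 3670 and within an intron at 2606. The peak itself covered the TSS at 72 of 73 genes, against 92.0% over all genes. NDUFC1, a small accessory subunit of complex I, was the exception, with a peak that began inside the gene and had its midpoint 724 bp downstream. Besides it, only UQCRH and NDUFS8 had a nearest midpoint more than 500 bp away.

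The nearest midpoints farthest out but still inside it were those of UQCRH at 1231 bp upstream and NDUFC1 at 724 bp downstream. The closest outside were those of ATP5MGL at 4880 bp and COX6A2 at 6564 bp, both downstream. The median width of the nearest peaks was 1171 bp, with quartiles at 958 and 1422 bp and extremes at 565 and 4559 bp, against a median of 1336 bp over all genes with a promoter peak. Widths over 3 kb occurred at 4 genes, NDUFS8, UQCRH, COX6B2 and NDUFA4L2. The list holds no signal, so the width is the only size a peak has here.

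**Figure D3:**
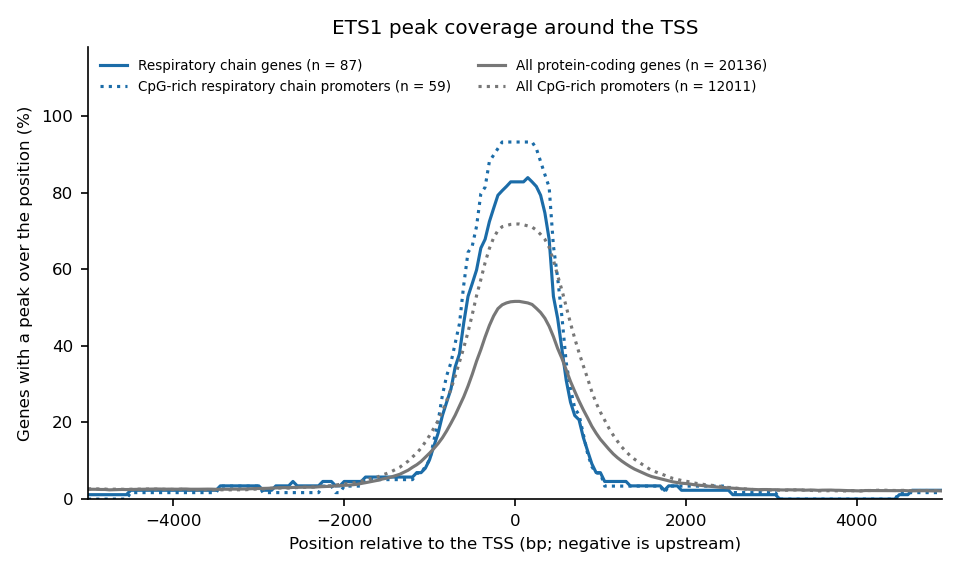
For each position from 5 kb upstream to 5 kb downstream of the TSS, the percentage of genes with an ETS1 peak over it is plotted for the respiratory chain genes (blue) and all protein-coding genes (grey), with CpG-rich promoters dotted. At the TSS the curves reach 82.8% and 51.6%, and 93.2% and 71.8% for CpG-rich promoters; 2 kb downstream they are at 2.30% and 4.06%.

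More than 1 promoter peak was found at 4 genes (5.48% of the 73, against 9.99% over all genes with a peak). NDUFS6, a zinc-binding accessory subunit of complex I, had 3, at 63 bp downstream (958 bp wide), 927 bp upstream (339 bp) and 1779 bp upstream (1024 bp), and all of them also lie in the window of MRPL36, a mitochondrial ribosomal protein gene. NDUFS8 had a second peak of 2420 bp at 3317 bp upstream. COX6B1 had a second peak at 4420 bp upstream that was wider (3673 bp) than the peak at its TSS (1336 bp). The fourth such gene was ATP5IF1, described above.

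Outside the promoter windows, 218 different peaks lay within 50 kb of a respiratory chain TSS. Of these, 103 (47.2%) were within 1 kb of the TSS of another protein-coding gene, against 35.5% over all protein-coding genes. Peaks within the annotated genes but outside the promoter window were few, with 9 peaks in 8 genes (9.20% of the genes, against 19.3% of all), among them peaks in introns of NDUFA12, NDUFC1 and COX6B2 and a peak in an exon of NDUFB10 at 1730 bp from its TSS. Gene length was not taken into account in this share.

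Some subunits are encoded by pairs of genes, where 1 gene is used in most tissues. The other is used in few tissues or conditions, or is a near-identical copy, as UQCRHL is of UQCRH and ATP5MGL of ATP5MG. Both kinds are counted as paralogues below. The 9 pairs were set side by side. At the broadly used gene a promoter peak was present in 8 of 9 pairs, and at the paralogue in 2 of 9 (22.2%, interval 6.32 to 54.7%). Over all protein-coding genes the share was 55.3%. The peak was at the broadly used gene alone in 6 pairs, at both in 2 and at neither in 1. Without the 9 paralogues, 71 of 78 respiratory chain genes had a peak (91.0%, interval 82.6 to 95.6%). Only 2 of the 9 paralogue promoters were CpG-rich, those of COX6A2 and COX6B2, against 57 of the other 78. Of the 7 paralogue promoters that were not CpG-rich, 1 had a peak (14.3%, interval 2.57 to 51.3%). Over all genes 27.7% of such promoters had a peak, a value inside that interval. The part of CpG content in the difference between paralogues and other respiratory chain genes was not tested.

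For the subunit COX4, COX4I1 had a peak 39 bp from its TSS, while at COX4I2, the form of lung and hypoxic cells, the nearest midpoint was 25020 bp upstream. The heart and muscle forms COX6A2 and COX7A1 had their nearest midpoints 6564 and 11245 bp downstream, where their partners COX6A1 and COX7A2 had a midpoint 66 bp upstream and 78 bp downstream. COX8C, a testis form, had the nearest midpoint 14277 bp upstream, and COX8A had 1 at 94 bp downstream. The pair without a peak at either gene was COX7B and COX7B2, where the nearest midpoint of the latter was 554265 bp upstream.

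The 2 paralogues with a peak had the widest nearest peaks of the set. NDUFA4L2, a gene induced by hypoxia-inducible factor, had a peak of 4559 bp (chr12:57628969-57633527) centred 361 bp upstream of its TSS, while that of NDUFA4 measured 1166 bp. The promoter of NDUFA4L2 was not CpG-rich, with an observed to expected ratio of 0.268. COX6B2, a testis form of the subunit that lies over the cytochrome c site, had a peak of 3525 bp (chr19:55864358-55867882) centred 33 bp upstream, against 1336 bp at COX6B1. UQCRHL and ATP5MGL are near-identical copies of UQCRH and ATP5MG, and the authors removed reads that mapped to several loci. What this did to peaks at these 2 copies was not tested.

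**Figure D4:**
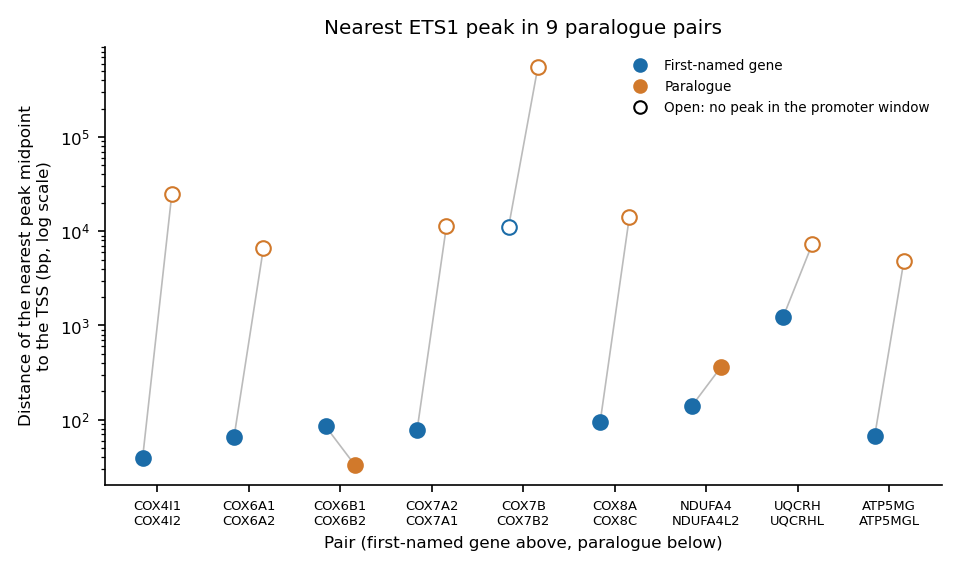
The distance between the TSS and the nearest ETS1 peak midpoint is plotted in bp on a log scale for the broadly used gene (blue) and the paralogue (orange) of 9 pairs, and open circles mark genes without a peak in the promoter window. Filled circles lie at or below 1231 bp, and open circles at or above 4880 bp.

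A neighbour that starts on the opposite strand within 1 kb upstream, an arrangement called head to head, was present at 25 respiratory chain genes (28.7%), against 9.43% of all protein-coding genes. The gap between the TSSs ranged from 38 bp at NDUFB9 and TATDN1 to 677 bp at NDUFA13 and TSSK6, with a median of 167 bp. Of these 25 genes, 23 had a peak (92.0%, interval 75.0 to 97.8%), and among all genes with such a neighbour the share was 92.0% too. Of the 62 genes without such a neighbour, 50 had a peak (80.6%, interval 69.1 to 88.6%), against 51.5% over all genes. At the 23 head-to-head genes with a peak, the peak covered both TSSs every time, a count not made over all genes. The midpoint was upstream, on the side of the neighbour, at 20 (87.0%). Over all genes with such a neighbour and a peak, it was upstream at 73.9%. A peak over both TSSs belongs as much to the neighbour, and the list cannot assign it to either gene.

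Some of the neighbours are named here, chosen after their values were seen. NDUFB5, of the membrane arm of complex I, shares its peak (846 bp) with MRPL47, a mitochondrial ribosomal protein gene, over a gap of 156 bp. SDHD shares its peak with TIMM8B, an import chaperone of the intermembrane space, over 117 bp. NDUFA7 and the ribosomal protein gene RPS28 start 121 bp apart, and NDUFS1 starts 451 bp from EEF1B2, a translation elongation factor. COX4I1 starts 151 bp from EMC8, a subunit of the endoplasmic reticulum membrane complex. The exceptions without a peak were NDUFA8 beside MORN5 and NDUFB11 beside RBM10. In all, 36 of the 73 peaks (49.3%) also lay in the promoter window of another protein-coding gene, against 27.8% over all genes with a peak.

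The partner of ATP5PF, which encodes coupling factor 6 of the ATP synthase stalk, is GABPA itself, the DNA-binding subunit of GABP. The TSSs lie 68 bp apart and share a peak of 1645 bp (chr21:27106769-27108413). The bases between both TSSs (chr21:27107216-27107282, - strand) are shown because they serve both genes, a choice made after the values were seen, with ETS letters in capitals.
ATP5PF to GABPA: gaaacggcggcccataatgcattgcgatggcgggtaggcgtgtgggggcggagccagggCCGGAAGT

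The ETS letters start 8 bp before the TSS of ATP5PF, and a further match lies 180 bp before it. The YY1 letters ATGGCG are in the same stretch.

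In the 300 bp promoter of each gene, from 250 bp upstream to 50 bp downstream of the TSS, letters of known motifs were searched on both strands. These were CCGGAAG or CGGAAGT for ETS factors, TGCGCANGC for NRF1, ATGGCG for YY1, GGGCGG for SP1, TGACGTCA for CREB and TCAAGGTCA for ESRRA. The ETS letters overlap in CCGGAAGT, which was counted as 1 site, and matches of different motifs were counted whether or not they overlapped. ETS letters were found in 26 of the 87 promoters (29.9%, interval 21.3 to 40.2%), against 16.9% of all promoters and 21.9% of all CpG-rich promoters. NRF1 letters were found in 17 (19.5%, interval 12.6 to 29.1%), against 6.10% of all and 8.78% of CpG-rich promoters. YY1 letters were found in 30 (34.5%, interval 25.3 to 44.9%), against 14.5% of all and 19.0% of CpG-rich promoters. The interval for ETS thus included the value of CpG-rich promoters, and those for NRF1 and YY1 did not. This sets unlike groups side by side, because only 59 of the 87 promoters were CpG-rich. The letters were not counted in those 59 alone, so no conclusion is drawn about ETS letters at equal CpG content. SP1 letters were found in 53 (60.9%), against 61.0% of all and 82.8% of CpG-rich promoters. CREB letters were found in 5 (5.75%), against 2.68%, and ESRRA letters in 2, at SDHD and ATP5MC3 (2.30%), against 0.184%. ETS and NRF1 letters occurred together in 6 promoters (6.90%, against 1.48% of all and 2.12% of CpG-rich promoters).

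**Figure D5:**
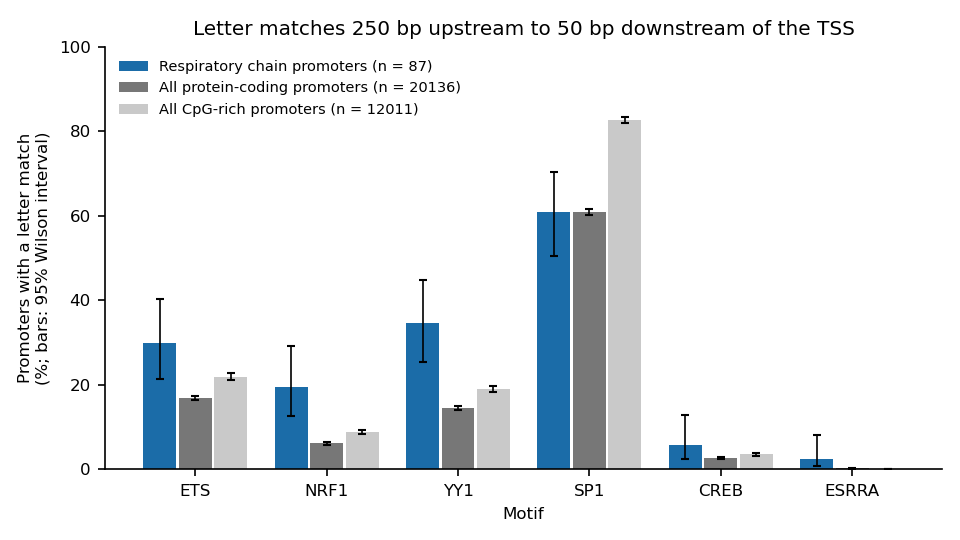
The percentage of promoters with a letter match is plotted for 6 motifs in the respiratory chain promoters (blue), all protein-coding promoters (dark grey) and all CpG-rich promoters (light grey), with 95% Wilson intervals as bars. The respiratory chain bars stand at 29.9% for ETS, 19.5% for NRF1 and 34.5% for YY1, and their intervals leave out the 16.9%, 6.10% and 14.5% of all promoters. Of the values of CpG-rich promoters (21.9%, 8.78% and 19.0%), that for ETS is inside the interval, but the blue bars include promoters that are not CpG-rich.

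A match is a description of letters and does not show that a factor was bound, nor does the lack of these letters show that none was. Of the 26 promoters with ETS letters, 25 had an ETS1 peak (96.2%, interval 81.1 to 99.3%), UQCR11 being the exception, and over all genes 85.8% of such promoters did. Of the 61 without ETS letters, 48 had a peak (78.7%, interval 66.9 to 87.1%), against 49.1% over all genes. Most of the peaks at respiratory chain genes were thus at promoters without these letters in the 300 bp, as were 8219 of 11137 over all genes. Of the 73 promoters with a peak, 34.2% held the letters (interval 24.4 to 45.7%). Over all promoters with a peak it was 26.2%, a value inside the interval. For NRF1 letters, 13 of 17 such promoters had a peak (76.5%, interval 52.7 to 90.4%), against 79.5% over all genes, and for YY1 letters 25 of 30 (83.3%, interval 66.4 to 92.7%), against 76.3%.

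The 26 promoters held 39 ETS sites, with more than 1 site in 10 of them. The median start was 47.0 bp before the TSS, against 45.0 bp over all promoters, and 25 of the sites (64.1%) lay in the 100 bp before the TSS, against 57.2%. On the strand opposite to the gene lay 27 sites (69.2%), against 47.5% of sites over all promoters. All 37 sites at genes with a peak were inside that peak. The search reached from 250 bp upstream to 50 bp downstream of the TSS, and 72 of the 73 peaks cover the TSS. That count thus follows largely from the windows, and it was not made over all promoters. NDUFS3 had 3 sites and ATP5MK, a small subunit that stabilises ATP synthase dimers, had 4. Of the promoters with a head-to-head neighbour, 56.0% of 25 held ETS letters, and of those without 19.4% of 62. Over all genes these shares were 37.4% and 14.8%.

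Within 100 bp of the midpoint, 13 of the 73 peaks held them (17.8%, interval 10.7 to 28.1%), against 14.7% of all promoter peaks, a value inside the interval. Over the whole width of the peak, 35 did (47.9%), against 47.3% of all promoter peaks. The 13 genes are NDUFB5, NDUFB7, NDUFB9, NDUFS3, SDHD, UQCRQ, COX4I1, COX5B, COX6A1, COX6B1, ATP5ME, ATP5MG and ATP5MK. The midpoint is the middle of an interval and not a summit, which the list does not give.

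The 7 broadly expressed genes without a promoter peak were looked at together, as NDUFA5, NDUFA8, NDUFB11, NDUFV2, UQCR11, UQCRB and COX7B. Of these, 3 had CpG-rich promoters, NDUFB11, NDUFV2 and UQCR11. NDUFB11 and COX7B lie on the X chromosome, where NDUFA1, of the membrane arm of complex I, was the 1 respiratory chain gene out of 3 with a peak. Over all protein-coding genes of the X chromosome 26.3% had a promoter peak, and 43.1% of those with a CpG-rich promoter. On the other chromosomes 85.7% of the 84 respiratory chain genes had a peak. The share of all genes was not counted without the X chromosome, and with it was 55.3%. Among the 7 genes, NRF1 letters were held by UQCR11, UQCRB and NDUFA8, and YY1 letters by NDUFA5, NDUFA8, NDUFB11 and NDUFV2. SP1 letters were held by NDUFA5, NDUFA8, NDUFB11, NDUFV2 and UQCR11.

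The genes that build the complexes and the enzymes that feed them were counted in the same way, from lists chosen with earlier results of these data known. Of 53 assembly factors, 51 had a promoter peak (96.2%, interval 87.2 to 99.0%), with 15 of 16 for complex I, all 4 for complex II, all 6 for complex III, 23 of 24 for complex IV and all 3 for complex V. The 2 without were TMEM126B, a complex I assembly factor, and COA7, listed with complex IV. Subunit genes of complexes II and V and their assembly factors thus had peaks in the promoter window with the single exception of ATP5MGL. At TMEM70, listed with complex V, the peak was 1351 bp wide and centred 3876 bp upstream, so it did not reach the TSS. That peak lies in the window of ELOC too. Of 14 enzymes of the tricarboxylic acid cycle, 12 had a peak (85.7%, interval 60.1 to 96.0%), and the 2 without were DLD and SUCLA2. The share was 55.3% over all protein-coding genes and 74.0% over all CpG-rich promoters, a value inside the interval of the cycle enzymes. CpG-rich promoters made up 86.8% of the assembly factors and 92.9% of the cycle enzymes. Of these promoters, 97.8% (interval 88.7 to 99.6%) and 84.6% (interval 57.8 to 95.7%) had a peak. The respiratory chain genes outside the naming rule had a peak at NDUFAB1, the acyl carrier protein of complex I, and at CYCS, cytochrome c, and none in the window at CYC1, cytochrome c1, whose nearest midpoint was 1331 bp from its TSS.

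In other large sets of broadly expressed genes, a promoter peak was present at 74 of 78 mitochondrial ribosomal protein genes (94.9%, interval 87.5 to 98.0%), 81 of 86 cytosolic ribosomal protein genes (94.2%, interval 87.1 to 97.5%) and 46 of 48 proteasome genes (95.8%, interval 86.0 to 98.8%). These shares lie above the interval of the 87 respiratory chain genes, 74.8 to 90.2%, and, but for the proteasome genes, within that of the 78 genes without paralogues, 82.6 to 95.6%. No difference between these sets was tested.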

How the data were processed

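The authors mapped reads of the 3 ChIP samples to hg19 with Bowtie 1.1.1, kept reads with a single locus, merged files with SAMtools 1.3 (versions from the submitters' processing notes and the methods), called peaks with MACS2 against merged input and applied IDR. The deposited list holds positions in bp only, with no signal, score or p-value, and all columns belong to the pool of samples.

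Here, starts were converted to 1-based positions, the 9 peaks on mitochondrial DNA were left out (26961 remained), and distances were computed from midpoints to canonical TSSs of GENCODE 44 on GRCh37. For 281 genes, 1 of them a member (NDUFB6), no transcript had the canonical tag and the principal or longest one was used. Shares carry 95% Wilson intervals. Members and lists were chosen with earlier results of these data known. Genes named with values are, by rule, those without a promoter peak, with several, nearest to the window's edges, widest or nearest in their complex, core, SDH and paralogue genes, and others were chosen after their values were seen. The sequences shown are, by rule, those with the match nearest to the midpoint in each complex, with chromosome 8 left out, 1 of a gene without a peak and 1 chosen later. Alternatives changed the window, the TSS, the peaks, the members and the motif. The values of 1 gene, which is included in all counts, are not reported here or drawn by name. The code was tested on simulated data with planted peaks and motifs. The tools were samtools 1.23.1, pysam 0.24.0 and matplotlib 3.10.9 with pandas 2.3.3, numpy 2.4.6 and scipy 1.17.1 under Python 3.11.15.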

Additional observations from a re-analysis of the deposited data

How the results depend on the processing

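No paired analysis was possible because the peaks come as 1 pooled list, and for the same reason no replicate could be left out and depth could not be related to any value. Over 31 alternatives to the counting, 22 stayed within the 95% interval of the reported value and 9 did not. With the peaks in lines 1 to 13485 of the list alone, whose order has no stated meaning, the share of genes with a promoter peak was 60.9% (35.9% of all genes), that of CpG-rich promoters 64.4% (48.3% of all CpG-rich promoters) and that within 50 kb 86.2% (61.7% of all genes). Without the paralogues and ATP5IF1 the share with a promoter peak was 90.9%. Of all 87 genes, 90.8% had a peak within 20 kb (67.8% of all protein-coding genes). Measured to the nearest annotated TSS, the median distance was 84.0 bp. The share of peaks with ETS letters near the midpoint was 30.1% within 200 bp and 39.7% with the 6-letter forms CCGGAA or CGGAAG. Neither share was counted over all promoter peaks. Over the whole peak it was 47.9%, against 47.3% of all promoter peaks. A wider search or a shorter motif finds more by construction. The TSS of NDUFB6 comes from a transcript without the canonical tag.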

Other observations

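Factors that act on mitochondrial genes had ETS1 peaks at their own promoters. Of 17 genes on a list of transcription factors, coactivators and the machinery of mitochondrial DNA, 16 had a promoter peak (94.1%, 95% Wilson interval 73.0 to 99.0%), beside 55.3% of all protein-coding genes. The 74.0% of all CpG-rich promoters lies inside that interval. CpG-rich promoters made up 15 of the 17 (88.2%), and all 15 had a peak (interval 79.6 to 100%). At NRF1 the midpoint lay 186 bp downstream of the TSS, at YY1 164 bp downstream in a peak of 2971 bp, and at ESRRA 256 bp upstream in a peak of 4170 bp. All 3 GABP genes had a peak, with midpoints 308 bp downstream at GABPA, 306 bp downstream at GABPB1 and 47 bp downstream at GABPB2. TFAM and TFB2M, which start transcription of mitochondrial DNA with the polymerase POLRMT, had midpoints 96 bp downstream and 211 bp upstream, and POLRMT had 1 at 444 bp downstream. TFB1M, a methyltransferase of mitochondrial ribosomal RNA, had a midpoint 36 bp downstream. PPARGC1A, a coactivator of oxidative tissues, was the gene without a peak, with the nearest midpoint 580404 bp away, while its relatives PPARGC1B and PPRC1 had peaks 782 and 313 bp downstream.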
